A study of Mus musculus with 95 samples.

Results

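Libraries 1 to 8 and 34 to 39 are 14 of the 95 RNA-seq libraries of mouse pancreatic islets in this series, and they were set against the other 81. The 14 were chosen by a measured value, the level of Gm13341 above 50 CPM (CPM is a gene's estimated count scaled to a library total of 1000000), and they form 2 runs of title numbers. All mice were fed a high-fat, high-sugar diet of 45% fat and belonged to strains that founded the Diversity Outbred (DO) stock, an outbred population made by crossing inbred mice. The labels give neither strain, sex nor age per library, nor whether a library came from 1 mouse, so the strain of the 14 libraries is not named here and no library is called a replicate of another. Because the libraries carry no group label and were picked on their values, differences are described by medians, ranges and separation, with no p-value.

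Library totals were 23575343 to 34357253 estimated counts in the 14 libraries and 16411809 to 32642173 in the others. The islet hormone genes were abundant in both sets: 8 hormone genes held a median of 17.6% of counts in the 14 libraries (10.2% to 25.0%) and 20.5% in the others (6.82% to 26.6%). A list of 30 acinar genes, markers of the enzyme-secreting pancreas around the islets, held a median of 16.6% of counts in the 14 libraries (2.73% to 39.4%) and 6.33% in the others (0.324% to 50.8%). In bulk RNA, fewer cells of a type and less RNA per cell cannot be told apart. Of the defining markers of other cell types, the T cell gene Cd3e was listed at 0 in 4 of the 14 libraries and in 17 of the others, and the duct channel gene Cftr at 0 in 0 of the 14 and in 5 of the others. The red cell gene Hba-a1 was under 1e-06 CPM in 3 of the 14 libraries and in 16 of the others. The other defining markers in the table, which include those of endothelial, stellate, glial, macrophage and B cells, were above that level in every library. Xist, expressed from the inactive X chromosome of females, was above 100 CPM in 6 of the 14 libraries (2, 3, 5, 6, 38 and 39), and the Y-linked Ddx3y was above 10 CPM in the other 8, so both runs held libraries of either kind, in numbers of 4 and 4 in libraries 1-8 and of 2 and 4 in libraries 34-39.

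Mitochondria carry their own small genome, and pieces of it have been copied into the nuclear chromosomes during evolution. Many nuclear genes, those of ribosomal proteins above all, have similarly left intronless copies called processed pseudogenes. Inbred mouse strains differ in the sequence and in the presence of such copies, and a short read from a copy can be nearly identical to one from its parent. Counts for such genes therefore depend on how each read is divided between the copies.

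Gm13341, a pseudogene on chr2:22587291-22587962 in a nuclear copy of mitochondrial DNA, shares 48.0% of its 31-base words with mt-Co2, the mitochondrial gene for a subunit of cytochrome oxidase. The pair below is shown because Gm13341 defines the 14 libraries. Capitals mark the 7 of 120 bases at which the reference sequences differ; Gm13341 is from chr2:22587402-22587521, minus strand, and mt-Co2 from chrMT:7466-7585, plus strand (GRCm38, GENCODE M21 transcripts). Over 669 aligned bases, 97.6% were identical.
Gm13341: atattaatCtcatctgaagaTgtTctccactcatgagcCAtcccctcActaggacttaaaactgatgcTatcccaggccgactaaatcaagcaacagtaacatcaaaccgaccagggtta
mt-Co2: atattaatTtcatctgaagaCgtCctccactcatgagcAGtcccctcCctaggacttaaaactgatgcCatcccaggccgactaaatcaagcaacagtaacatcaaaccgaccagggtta

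The next pairs are shown because their median levels changed places between the 14 libraries and the others. Rpl9, a ribosomal protein gene on chromosome 5, and its copy Rpl9-ps6 on chromosome 19 differ at 1 of 576 coding bases, so that 99.8% were identical. Coding bases 207 to 326 of both are printed, with the differing base in capitals; in Rpl9-ps6 they lie at chr19:32466226-32466345, minus strand.
Rpl9: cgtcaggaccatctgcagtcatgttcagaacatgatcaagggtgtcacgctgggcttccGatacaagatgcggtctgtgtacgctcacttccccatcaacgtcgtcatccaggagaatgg
Rpl9-ps6: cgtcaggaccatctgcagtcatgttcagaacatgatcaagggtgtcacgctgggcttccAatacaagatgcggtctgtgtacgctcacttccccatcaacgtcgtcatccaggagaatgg

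Rps13-ps1, a processed pseudogene on chromosome 8, and its parent Rps13 on chromosome 7 were identical at 451 of 453 aligned bases. The stretch from chr8:87048041-87048160, plus strand, is set beside coding bases 322 to 441 of Rps13, and capitals mark the 2 differing bases.
Rps13-ps1: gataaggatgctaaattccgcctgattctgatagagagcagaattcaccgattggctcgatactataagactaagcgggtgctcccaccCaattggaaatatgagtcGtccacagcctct
Rps13: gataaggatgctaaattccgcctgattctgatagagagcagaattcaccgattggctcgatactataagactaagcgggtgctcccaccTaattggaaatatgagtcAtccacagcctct

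The pancreatic amylase genes lie side by side on chromosome 3. Amy2b, which GENCODE M21 annotates as an unprocessed pseudogene, and Amy2a3, annotated as protein-coding, were 98.1% identical over 1523 aligned bases. Transcript bases 178 to 297 of Amy2b and coding bases 161 to 280 of Amy2a3 are shown, with the 7 differing bases in capitals.
Amy2b: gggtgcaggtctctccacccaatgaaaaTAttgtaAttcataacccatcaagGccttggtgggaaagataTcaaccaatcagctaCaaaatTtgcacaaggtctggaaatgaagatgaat
Amy2a3: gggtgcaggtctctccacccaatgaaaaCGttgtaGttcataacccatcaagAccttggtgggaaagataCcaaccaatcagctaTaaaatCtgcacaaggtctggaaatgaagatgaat

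Gm13341 was between 129 and 305 CPM in the 14 libraries, with a median of 184.0 CPM, and at most 1.12 CPM in the other 81, with a median of 0.197 CPM. The lowest of the 14 was library 35 at 129 CPM and the highest outside them was library 74 at 1.12 CPM, so no library lay between. Both runs carried it alike, with medians of 172 CPM in libraries 34-39 and 184.0 CPM in libraries 1-8. The levels of mt-Co2 ran the other way: 24.8 CPM in the 14 libraries (17.4 to 36.2) against 1262 CPM in the others (18.4 to 1905). The ranges of mt-Co2 overlapped because libraries 66-75 also had low values, between 18.4 and 42.6 CPM, at a median Gm13341 level of 0.569 CPM. Another copy, Gm28661 on chromosome 1, shares 100% of its words with mt-Co2 and had 1618 CPM in the 14 libraries (lowest 1155) against 887 CPM in the others (407 to 2785). The 3 added together came to 1303 to 2413 CPM in the 14 libraries and 992 to 3188 CPM in the others, which overlap, with a difference of medians of -0.26 log2 units. The 13 protein-coding genes of the mitochondrial genome together held 1.88% of counts in the 14 libraries (1.41% to 2.57%) and 1.84% in the others (0.914% to 2.64%). Of the single mitochondrial genes, mt-Nd2, a subunit of complex I, was 1511 CPM in the 14 libraries (lowest 1087) and 847 CPM in the others (324 to 1407), and mt-Co1, another oxidase subunit, was 5505 CPM (4251 to 7763) and 5648 CPM (2835 to 7853) in the same order.

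**Figure D1:**
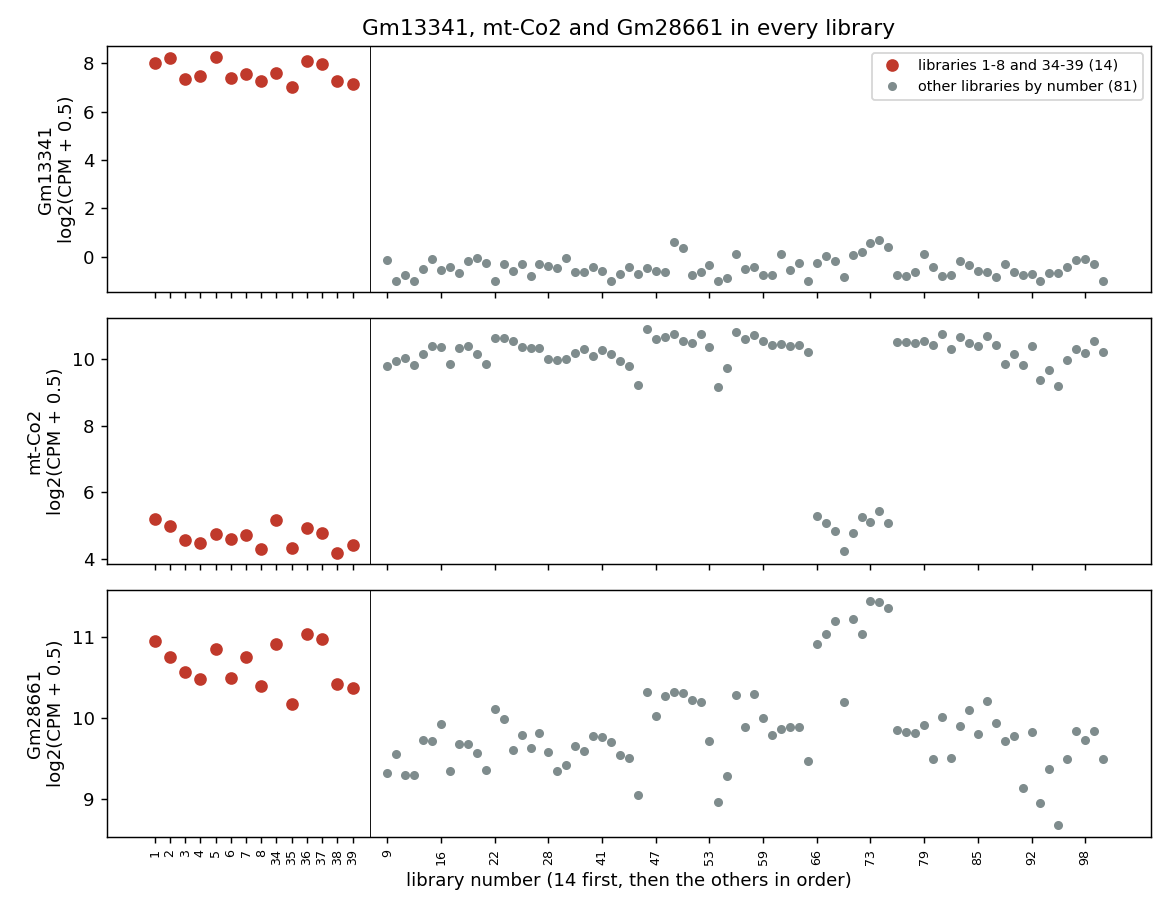
Levels of Gm13341, mt-Co2 and Gm28661 in each library as log2(CPM + 0.5), 1 point per library, with the 14 libraries on the left and the other 81 by number on the right. The 14 points of Gm13341 sit between 129 and 305 CPM, while mt-Co2 is low in the 14 and in libraries 66-75, where Gm28661 is high.

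Across the autosomes, 15281 genes reached 1 CPM in at least 10 libraries. A gene was called higher or lower when the medians of log2(CPM + 0.5) differed by at least 1 and at least 95% of all pairs of 1 of the 14 libraries and 1 other library had that order; the share of pairs in which the library of the 14 was higher is the pair share below. By this rule 86 genes were higher in the 14 libraries, 0.563% of those compared, and 272 were lower, 1.78%. The choice of libraries used this contrast through Gm13341, so the counts are a description. The ranges did not overlap at all for 56 genes, 28 above the others (0.183% of genes) and 28 below (0.183%). The median over all 15281 genes was itself -0.17 log2 units. With TMM library sizes, which limit the weight of a few abundant genes, that median was 0.00 and the counts were 158 higher and 207 lower, so the higher calls were 43.3% of all calls in place of 24.0%. All 86 higher genes and 201 of the 272 lower ones were called with TMM as well.

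Copies of other genes were common among the calls, and 18.6% of higher and 4.41% of lower genes were of pseudogene types, against 2.68% of all genes compared. A gene could meet the filter of 1 CPM in at least 10 libraries through the 14 alone. Rps15-ps2 did so, with at most 0.228 CPM in the others. Such genes and Gm13341, which chose the libraries, are among the higher genes, so the shares of higher genes here are a description only. A gene was treated as uncertain where at least 20% of its 31-base words lie in another gene, and this held for 37 of the higher genes (43.0%), 60 of the lower genes (22.1%) and 16.2% of all. For 84 of these 97 genes the closest gene was in the table too. When the counts of gene and closest gene were added, 34 of the 84 sums were still called and 34 differed by no more than 0.5 log2 units either way. In 11 the closest gene differed by 1 log2 unit or more in the opposite direction.

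Ribosomal protein genes gave the clearest exchanges. Rpl9 was 145 CPM in the 14 libraries (113 to 175) and 12.4 CPM in the others (6.53 to 26.1), and Rpl9-ps6, whose base differs as printed above, was 0.998 CPM in the 14 (0.135 to 3.55) and 177 CPM in the others (107 to 385). Neither gene's ranges overlapped, yet their sum was 146 CPM in the 14 libraries (113 to 176) and 190.3 CPM in the others (113 to 410), with overlapping ranges. Rps3a2, a processed pseudogene, was 228 CPM in the 14 libraries (179 to 275) and 1.41 CPM in the others (0.200 to 23.2), while its parent Rps3a1 was 94.4 CPM (80.2 to 132) against 410.3 CPM (260 to 950.0). Rps13-ps1 was 79.0 CPM in the 14 libraries (44.9 to 96.6) and 0.601 CPM in the others (0.00273 to 28.3), and Rps13 was 10.4 CPM (4.28 to 30.4) against 86.5 CPM (54.0 to 211). The sum of Rps13 and Rps13-ps1 differed by -0.01 log2 units. In each of these 3 families every one of the 14 libraries lay outside the range of the other 81 for both copies, and the sums overlapped.

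In other families the exchange was partial or was shared with some of the other libraries. Rps6-ps4 was 1.53 CPM in the 14 libraries (0.730 to 2.85) and 178 CPM in the others (1.18 to 464), with a median of 6.77 CPM in libraries 66-75 and 2.08 CPM in libraries 86-90. Its parent Rps6 was 270 CPM in the 14 (222 to 288) and 208 CPM in the others (138 to 496). Gm12174, a processed copy of the ribosomal protein gene Rpl7, was 43.8 CPM in the 14 libraries (29.8 to 51.4) and 244 CPM in the others (39.5 to 675), and Rpl7 itself 157 CPM (121 to 173) and 34.2 CPM (21.2 to 212). Libraries 66-75 shared that pattern too, at 51.6 CPM of Gm12174 and 190.1 CPM of Rpl7. Rps15-ps2 was 13.4 CPM in the 14 libraries (11.8 to 34.5), and in the others its highest value was 0.228 CPM. Gm10182, all of whose words lie in the chromatin protein gene Hmgn2, was 21.2 CPM in the 14 (15.6 to 47.1) and at most 1.54 CPM in the others. Eno1b, a gene of the glycolytic enzyme enolase, was 27.0 CPM in the 14 libraries (16.1 to 46.2) and 0.406 CPM in the others (up to 2.61), and its sum with Eno1 differed by -0.05 log2 units. Gm10709, a processed pseudogene, was 53.8 CPM in the 14 libraries but with a range of 0.212 to 70.6, against 0.202 CPM in the others (up to 1.14), and library 1 was the 1 of the 14 that lay among them.

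**Figure D2:**
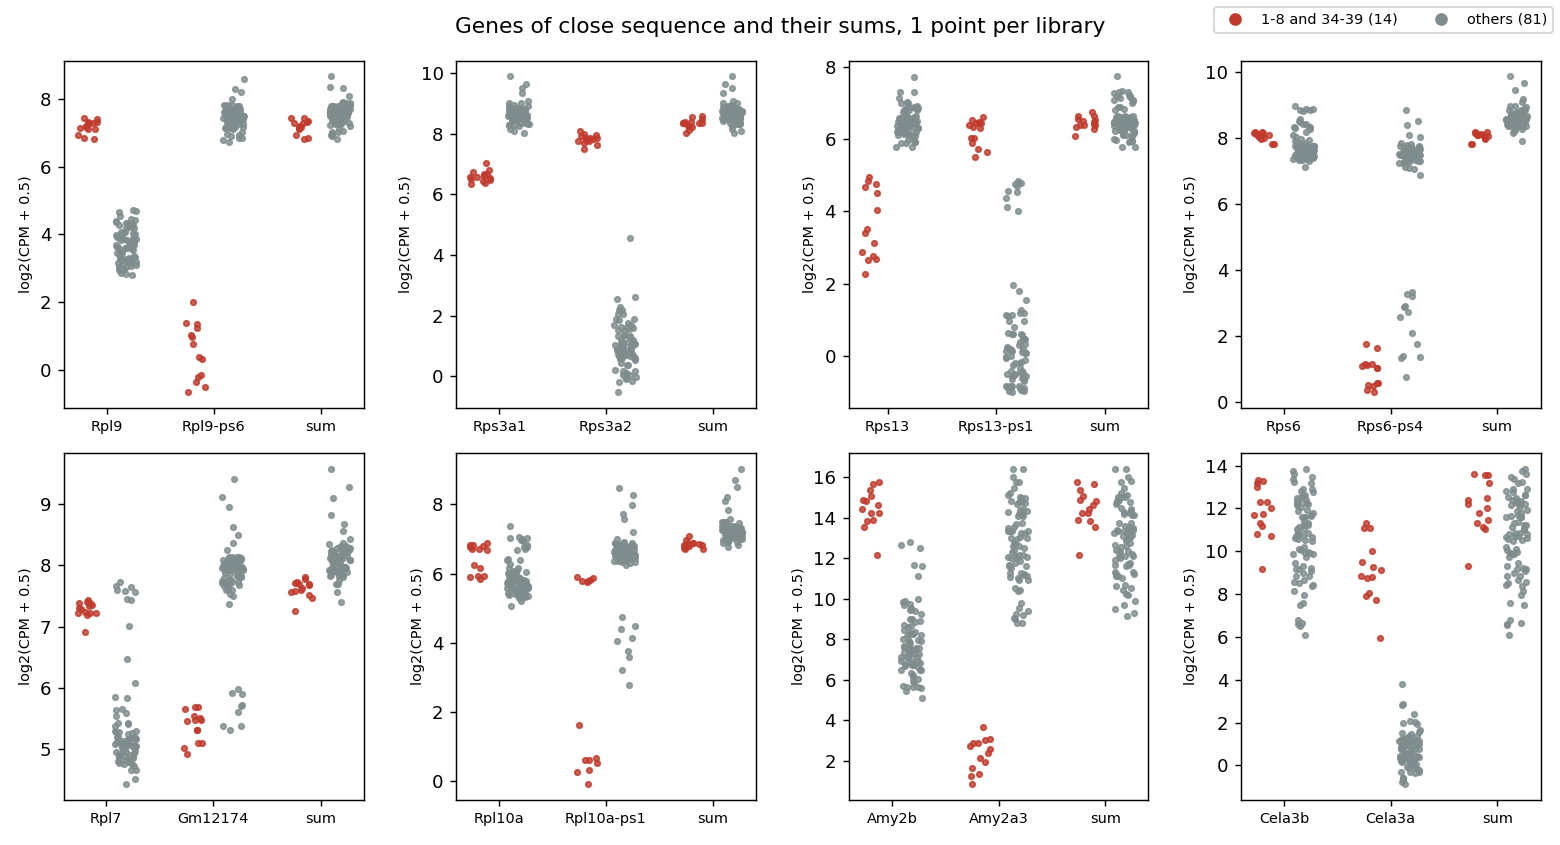
Levels of 8 pairs of genes of close sequence and their sums as log2(CPM + 0.5), 1 point per library, with the 14 libraries left of the others in each column. Rpl9 and Rpl9-ps6 change places between the sets, and their sums (146 CPM in the 14 libraries, 190.3 CPM in the others) overlap.

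Pisd, whose enzyme makes phosphatidylethanolamine in mitochondria, did not follow the exchange pattern. It was 150.2 CPM in the 14 libraries (102 to 199) and 65.7 CPM in the others (31.2 to 183), and its copies Pisd-ps1 (253 CPM against 62.0 CPM) and Pisd-ps2 (73.2 CPM against 19.3 CPM) were called higher as well. Their sum was 475 CPM in the 14 libraries (332 to 646) and 142 CPM in the others (58.5 to 519), a difference of 1.74 log2 units and a pair share of 0.966. Libraries 66-75 had similar medians, at 155 CPM of Pisd and 212 CPM of Pisd-ps1.

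The genes of digestive enzymes made in acinar cells held some of the largest differences, and they share much of their sequence. Amy2b was 23424 CPM in the 14 libraries (4651 to 55218) and 193 CPM in the others (34.3 to 7136). Libraries 91-100 differed from the rest of the others, with medians of 2668 CPM of Amy2b and 1649 CPM of Amy2a3. Amy2a3 was 5.09 CPM in the 14 (1.31 to 12.4) and 7167 CPM in the others (445 to 87194), a difference of -10.33 log2 units with no overlap, and Amy2a4 was 12.6 CPM (3.82 to 30.0) against 2058 CPM (156 to 30845). The remaining members of the cluster, Amy2a2 (11269 CPM against 2419 CPM) and Amy2a5 (18481 CPM against 2580 CPM), overlapped between the sets and did not pass. By words the closest gene to Amy2a3 is Amy2a2 (98.5%), not Amy2b, and the sum of Amy2a3 and Amy2a2 differed by -0.09 log2 units. Amy1, the salivary and liver amylase gene, was called higher, at 212 CPM in the 14 libraries (36.8 to 505) and 8.02 CPM in the others (0.822 to 70.8). The 6 amylase genes added together were 50866 CPM in the 14 libraries (9723 to 121255) and 16643 CPM in the others (1087 to 181620), a difference of 1.61 log2 units that stood beside the higher acinar share given above; the part of that share in it was not tested. Cela3a, an elastase gene, was 513 CPM in the 14 libraries (61.0 to 2541) and 1.08 CPM in the others (0.0463 to 13.6), without overlap, whereas its neighbour Cela3b was 3762 CPM (579 to 10380) and 1816 CPM (68.0 to 14890). Prss1, a trypsinogen gene, was 59.1 CPM in the 14 libraries (3.65 to 281) and 0.770 CPM in the others (up to 1673). Its medians of 30.0 CPM in libraries 86-90 and 4.70 CPM in libraries 91-100 lay within the range of the 14. Over the acinar list of 30 genes, 3 were called higher (Amy2b, Cela3a and Prss1) and 2 lower (Amy2a3 and Amy2a4). Over all genes 0.563% were higher and 1.78% lower. All of the acinar genes called share at least 20% of their words with another gene. The list's median difference was 1.29 log2 units, 28 of its 30 differences were above 0, and the median pair share was 0.724.

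Reg genes encode small secreted lectins that pancreatic tissue makes in injury and regeneration. Reg2 was 656 CPM in the 14 libraries (114 to 3278) and 7.23 CPM in the others (0.908 to 534), a difference of 6.39 log2 units. Libraries 86-90 shared the high level, with a median of 294 CPM. Reg2 was the only call among 6 tested members, beside 0.563% higher and 1.78% lower over all genes. Reg1 was 3117 CPM in the 14 (508 to 9740) and 651 CPM in the others (29.4 to 4072), and Reg3d was 42.7 CPM (8.73 to 105) and 6.22 CPM (0.316 to 124). Reg3b was 3.93 CPM in the 14 libraries (0.967 to 90.0) and 4.91 CPM in the others (0.226 to 1115). The family held 0.458% of counts in the 14 libraries (0.0861% to 1.13%) and 0.0684% in the others (0.00338% to 0.414%), and it stood beside the same higher acinar share.

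Protein-coding genes with under 20% of words shared gave 38 of the higher calls, Rpl9 and Reg2 among them. Rpl9 lay just under that limit, at 19.9%, and its sum with Rpl9-ps6 differed by -0.38 log2 units. Sncb, which encodes beta-synuclein, a small protein of nerve endings, was 146 CPM in the 14 libraries (85.3 to 180) and 21.3 CPM in the others (6.01 to 30.8), with no overlap. Qpct, the enzyme that forms pyroglutamate at the ends of peptide hormones, was 29.4 CPM (14.5 to 38.0) against 5.55 CPM (0.534 to 12.9). Fancc, of the Fanconi anaemia DNA repair complex, was 24.1 CPM (13.9 to 48.9) against 4.15 CPM (1.88 to 10.5). In these 3 genes each of the 14 libraries exceeded each of the other 81.

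The other higher genes of this kind were of lower level or overlapped. Klhl30 had a difference of 3.05 log2 units (6.38 CPM in the 14 libraries, 0.322 CPM in the others), the urea transporter gene Slc14a2 one of 3.01 (13.2 CPM against 1.21 CPM), and the protease inhibitor gene Tfpi2 one of 2.50 (6.44 CPM against 0.731 CPM). Mrap2, an accessory protein of melanocortin receptors, was 12.7 CPM in the 14 libraries (4.98 to 21.2) and 1.94 CPM in the others (0.520 to 8.73). Mfng, which adds sugars to Notch receptors, was 33.9 CPM (14.8 to 47.0) against 6.48 CPM (1.87 to 53.2), and the growth factor gene Gdf11 was 13.3 CPM (7.09 to 29.6) against 2.46 CPM (0.398 to 19.0). 4933407L21Rik, Dcdc2c and the glutamate transporter gene Slc1a7 were at or under 3.66 CPM in the 14 libraries in the median, and the first 2 had ranges apart from the others. Those 2 were at most 0.366 CPM and 0.931 CPM in the others. They met the filter through the 14 alone, so their separation is a description only. Among the more abundant genes, the myosin motor gene Myo5a was 273 CPM in the 14 libraries against 87.9 CPM, and the cell adhesion gene Ncam1 158 CPM against 60.4 CPM.

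The lower calls held 176 protein-coding genes with under 20% of words shared. Adh1, an alcohol dehydrogenase, was 1.34 CPM in the 14 libraries (0.834 to 2.17) and 96.0 CPM in the others (4.10 to 237), a difference of -5.71 log2 units. Kcnip1, a calcium-binding partner of potassium channels, was 2.56 CPM in the 14 (0.751 to 8.65) and 74.4 CPM in the others (23.7 to 101). Pon2, a paraoxonase family lactonase, was 1.06 CPM (0.690 to 1.91) against 22.4 CPM (7.94 to 42.2). Ugt2b34, a glucuronosyltransferase, was 8.87 CPM (5.38 to 19.9) against 65.0 CPM (22.5 to 122). Scel, a protein of cornified epithelia, was 0.234 CPM (0.0291 to 0.731) against 8.25 CPM (1.92 to 27.1), and Dct, an enzyme of melanin synthesis, 0.0395 CPM (0 to 0.194) against 5.60 CPM (0.889 to 12.8). In these 6 genes the highest of the 14 libraries was under the lowest of the others.

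Further lower genes overlapped at their edges. Defb1, an antimicrobial defensin, was 10.0 CPM in the 14 libraries (3.14 to 25.4) and 71.4 CPM in the others (12.3 to 155), and the chromatin remodeller gene Chd5 was 8.01 CPM (3.94 to 17.6) against 54.9 CPM (11.4 to 111). Mttp, which loads lipid onto lipoproteins, was 2.40 CPM (1.30 to 6.40) against 17.5 CPM (4.10 to 44.1). Olfm4, Fam213b, Cdh7, C8b, Ptges and Plppr1 were each under 0.84 CPM in the median of the 14 libraries, against medians of 5.48 to 19.0 CPM in the others. Olfm4 is a secreted glycoprotein, Cdh7 a cadherin, C8b a complement component and Ptges a prostaglandin E synthase.

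**Figure D3:**
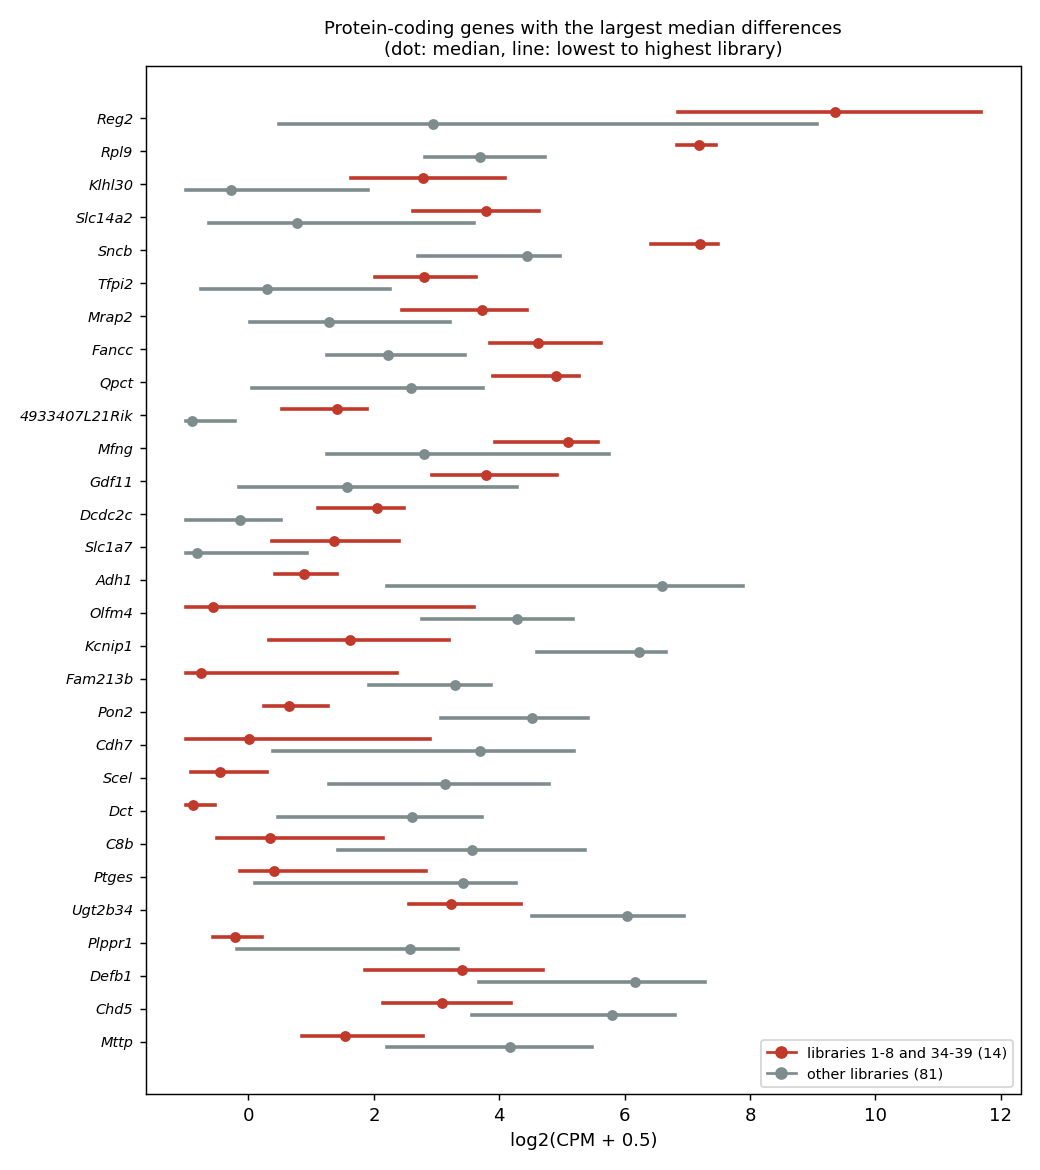
Levels of 14 of the 15 highest and of the 15 lowest protein-coding genes by median difference, as log2(CPM + 0.5), with the 14 libraries drawn above the other 81 for each gene. Dots are medians and lines run from the lowest to the highest library; Sncb, Qpct, Adh1, Kcnip1 and Pon2 have lines that do not meet.

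Of 34 gene lists with tested members, 27 had no member called. Islet cell genes were among these: 0 of 8 hormones, 0 of 20 beta cell identity genes, 0 of 16 prohormone processing and granule genes, 0 of 17 stimulus-secretion genes and 0 of 13 receptors were called, beside the 0.563% higher and 1.78% lower over all genes. With TMM sizes the granule gene Scg2 and the purine receptor gene P2ry1 were called higher. The median difference of beta cell identity genes was -0.08 log2 units, which TMM sizes turned to 0.14. Within these lists the member farthest from 0 was the incretin receptor Glp1r for beta cell identity, at 101 CPM in the 14 libraries (64.7 to 146) and 221 CPM in the others (50.9 to 439), and Ghrl, the ghrelin gene, for hormones, at 7.12 CPM (1.62 to 18.8) and 1.67 CPM (0.0416 to 9.66). The granule gene farthest from 0 was Chga, at 4949 CPM (2635 to 7613) and 11788 CPM (1864 to 15975), with a pair share of 0.152. Chgb (-0.89 log2 units), Pam (-0.99) and the insulin receptor gene Insr (-0.87) met the pair share for lower calls but not the difference. Differences were above 0 for 3 of the 16 granule genes and 5 of the 13 receptors. The 4 delta cell genes tested had a median difference of -1.16 log2 units (-0.99 with TMM), with 0 calls. Sst, the somatostatin gene, was 1161 CPM in the 14 libraries (628 to 1912) and 2939 CPM in the others (558 to 10664), with a pair share of 0.0996, and Hhex, the delta cell transcription factor, was 7.40 CPM (3.71 to 10.4) and 16.4 CPM (6.21 to 73.6).

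Interferon-induced genes act in antiviral defence. Of 21 tested, 4 were lower and 0 higher, beside 1.78% lower and 0.563% higher over all genes. Ifi44 was 0.134 CPM in the 14 libraries (0.0424 to 0.520) and 2.79 CPM in the others (0.466 to 11.9), Irf7, the transcription factor of the response, was 1.52 CPM (0.804 to 3.49) and 4.98 CPM (1.96 to 67.3), and Ifit1 was 1.64 CPM (0.669 to 2.41) and 4.03 CPM (1.56 to 31.6). Oas1a, a sensor of double-stranded RNA, was 0.427 CPM (0.176 to 1.60) and 2.44 CPM (up to 24.6), and it shares 68.8% of its words with other genes. The list's median difference was -0.86 log2 units against -0.17 over all genes. With TMM sizes its median was -0.64 and Ifi44 alone was called.

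Some of the remaining lists had members called, beside 0.563% higher and 1.78% lower over all genes. Among 31 glutathione and detoxification genes, Gstm7 was higher, at 14.2 CPM in the 14 libraries (10.8 to 18.5) and 3.17 CPM in the others (1.47 to 11.5). Gstm5, Aox1 and Ephx1 of that list were lower, and Gstm5 was 4.21 CPM (2.80 to 7.22) against 12.8 CPM (5.69 to 17.4); with TMM sizes Ephx1 was no longer called. The pericyte gene Rgs5 was 43.7 CPM (21.1 to 106) against 138 CPM (28.6 to 513), the 1 call among 12 fibroblast and stellate genes, and the macrophage receptor gene Adgre1 was 1.39 CPM (0.606 to 2.54) against 4.03 CPM (1.13 to 30.2), the 1 call among 12 macrophage genes and 0 with TMM sizes. Of 26 diabetes risk genes, Igf2bp2 (1.26 CPM against 3.86 CPM) and Sorl1 (24.9 CPM against 63.4 CPM) were lower. With 0 calls, the members farthest from 0 included Serpina3n, an acute phase protease inhibitor, at 29.8 CPM in the 14 libraries (9.16 to 57.9) and 3.00 CPM in the others (0.332 to 78.2), and the class II gene H2-Ea-ps at 8.39 CPM (2.88 to 15.8) and 0.0967 CPM (0 to 115). Their pair shares were 0.896 and 0.595, so at H2-Ea-ps the other library was the higher one in many pairs.

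Calls were spread over all 19 autosomes, from 0.959% of the genes of chromosome 10 to 5.77% of those of chromosome 3, where 5 genes were higher and 42 lower. Chromosomes 4 and 9 each had 3.65%, and 2.34% of genes were called over all. Of the 358 called genes, 151 (42.2%) started within 1 Mb of another called gene, while 33.5% of all genes compared started that close to a called gene other than themselves. Among groups of at least 4 called genes, the densest, with 5 of 7 genes compared called lower, was chr3:138048761-138307022 (GRCm38), which holds Gm5105, Mttp, Trmt10a, Adh1 and Gm16559. The amylase cluster, chr3:113147656-113606699, had 4 of 8 called. On chr13:21421275-21832196 the 4 lower of 12 were Pgbd1, Gm11273 and the histone genes Hist1h4j and Hist1h4n. A further 6 groups of 4 called genes spanned 25 to 65 compared genes each.

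The 2 number runs were also described apart, against sets of other libraries with higher numbers that had no library in common. Without Gm13341, libraries 1-8 had 249 genes higher (1.63%) and 381 lower (2.49%) than the 23 other libraries numbered 9 to 32. Libraries 34-39 had 79 genes higher (0.517%) and 411 lower (2.69%) than the 58 libraries numbered 40 to 100. Of the higher genes 63 were in both counts (libraries 1-8 against 9 to 32 and libraries 34-39 against 40 to 100), which is 25.3% of those of libraries 1-8 and 79.7% of those of libraries 34-39. Of the lower genes 220 were in both, 57.7% and 53.5% in that order. Against the 25 libraries numbered 40 to 65 alone, libraries 34-39 had 187 genes higher (1.22%) and 521 lower (3.41%). Of these, 151 higher genes (80.7% of them and 60.6% of those of libraries 1-8) and 299 lower genes (57.4% and 78.5%) were also called in libraries 1-8. The reference libraries 9 to 32 and 40 to 65 are parts of the same runs (9-16 and 40-48, 17-24 and 49-58, 25-32 and 59-65). Having no library in common thus does not make those comparisons independent. Among the genes of libraries 1-8, 245 of the 249 higher ones were above 0 in libraries 34-39 against 40 to 100, where 15.7% of all genes were above 0. All 381 lower ones were below 0 there, as were 84.3% of all genes, so that count says little. In that comparison 0 genes of either kind were called in the opposite direction.

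The rule for calls asks for 95% of pairs in 1 order, so most of the 14 libraries had to lie on their own side at called genes; the counts that follow show which libraries and genes departed from this. Taking the midpoint between the 2 medians of log2(CPM + 0.5), all 14 libraries lay on their own side at 205 of the 358 genes, 1 library was across it at 94 genes, 2 at 38 and 3 or more at 21. Library 2 was across the midpoint at 45 genes, libraries 3 and 5 at 30 each, and library 38 at 6, the fewest. For the other 81 libraries, which mostly lay on the opposite side, the median was 18 genes on the side of the 14. Library 54 had 172 and library 69 had 167 such genes, and neither had Gm13341 above 1.12 CPM. Their acinar lists held 50.8% and 42.2% of counts, and libraries 55, 95 and 93, with 124, 121 and 104 such genes, had acinar shares of 43.6%, 36.3% and 41.1%. The part of the acinar share in these counts was not tested.

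Several of those 21 genes fell into separate levels within the 14 libraries; they were picked out after their values were seen. Rpl29, a ribosomal protein gene on chromosome 9, was between 51.1 and 97.4 CPM in libraries 1, 2, 7, 37, 38 and 39 and between 0.375 and 1.97 CPM in the other 8, against 106 CPM (53.5 to 182) in the 81 others. Rpl10a-ps1, on chromosome 1, was between 53.6 and 58.9 CPM in libraries 2, 3, 4, 36, 37 and 39 and at or under 2.61 CPM in the rest of the 14, against 95.5 CPM in the others. Rpsa-ps10, on chromosome 3, was between 148 and 198 CPM in libraries 1, 2, 5, 34, 36, 38 and 39 and between 36.6 and 45.7 CPM in the rest, against 282 CPM in the others. The libraries with high values were not the same at the 3 genes, and only libraries 2 and 39 were high at all of them. All 3 share at least 44.9% of their words with other genes.

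Some of the other split genes had the same high libraries as another gene of their chromosome, as on chromosomes 4 and 2 below, while Olfm4 was the 1 split gene on chromosome 14. Others did not, such as Rpl29 and Gm10698, both on chromosome 9. On chromosome 4, Fam213b, a prostamide synthase, was between 2.16 and 4.67 CPM in libraries 2, 3, 4, 5, 7 and 8 and at or under 0.114 CPM in libraries 1, 6 and 34-39, against 9.26 CPM (3.28 to 14.02) in the others. Gm13157 and 2610305D13Rik, on the same chromosome, were high in the same 6 libraries, at 1.01 to 2.18 CPM and 0.878 to 1.59 CPM, and at or under 0.127 CPM in the other 8. They share 68.8% and 32.4% of their words with other genes, so their values are uncertain. On chromosome 2, Ptges (3.33 to 6.58 CPM) and Thnsl1 (11.7 to 13.5 CPM) were high in libraries 2, 3 and 7 and at or under 1.86 CPM and 6.96 CPM in the rest of the 14. On chromosome 14, Olfm4 was between 3.23 and 11.6 CPM in libraries 34, 35, 36, 37 and 39 and at or under 0.219 CPM in libraries 38 and 1-8, against 19.0 CPM (6.33 to 35.5) in the others. Fam213b was thus low in every library of 34-39 and Olfm4 in every library of 1-8.

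**Figure D4:**
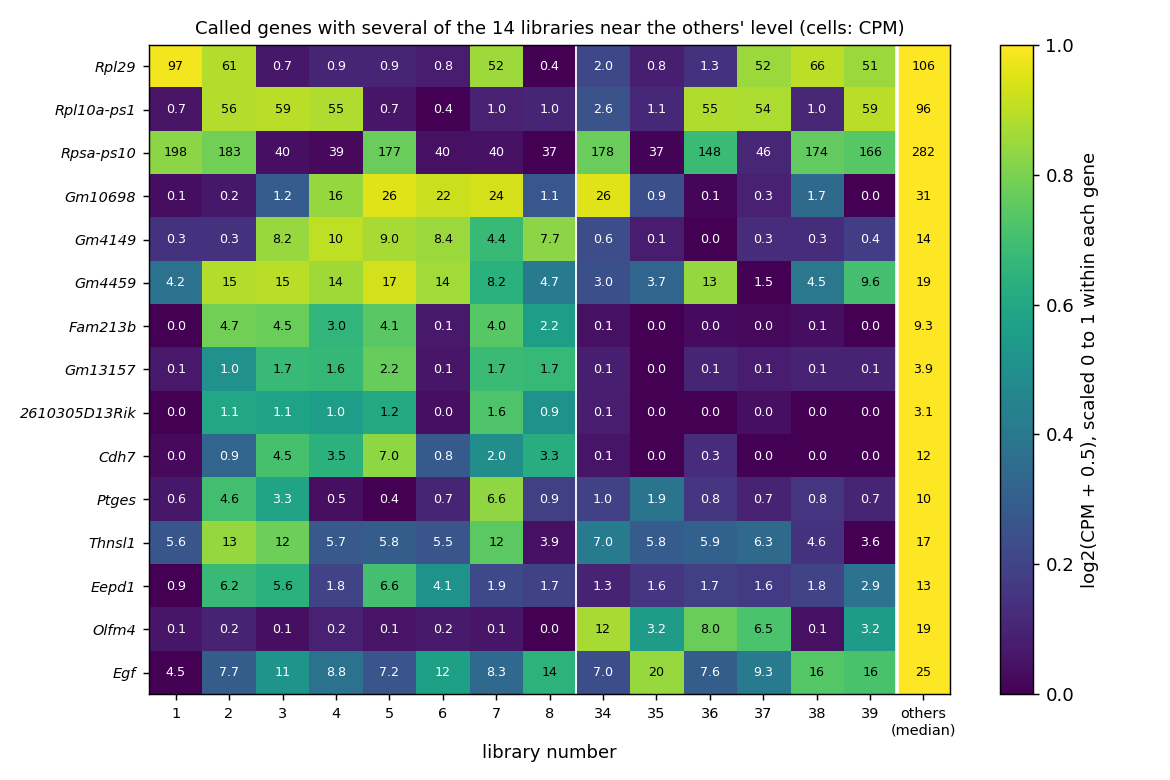
CPM of 15 called genes in each of the 14 libraries and, in the last column, the median of the other 81, coloured by log2(CPM + 0.5) scaled from 0 to 1 within each gene. Rpl29 and Rpl10a-ps1 fall into 2 levels, Fam213b, Gm13157 and 2610305D13Rik are high together in libraries 2, 3, 4, 5, 7 and 8, and Olfm4 is high in 5 of the 6 libraries 34-39.

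Libraries 34-39 were then set against libraries 1-8 with the same rule. In this contrast 50 autosomal genes were lower in libraries 34-39 (0.327%) and 0 were higher (0%), and the median over all genes was -0.14 log2 units. With TMM library sizes, an alternative added after seeing the data, 25 were lower and 6 higher. The TMM calls kept 24 of the 50 genes. The acinar list held 24.5% of counts in libraries 34-39 (8.18% to 39.4%) and 14.8% in libraries 1-8 (2.73% to 34.0%), and its part in these differences was not tested.

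The next 6 of the 50 lower genes were chosen after their values were seen, so they stand for no group. Nr4a3, an orphan nuclear receptor, was 1.87 CPM in libraries 34-39 (0.631 to 3.64) and 8.67 CPM in libraries 1-8 (4.42 to 9.63), and the other libraries ranged from 0.262 to 38.6 CPM. Dusp5, a phosphatase that acts on MAP kinases, was 74.2 CPM (21.6 to 131) and 239 CPM (146 to 400.1), and Csrnp1 was 58.3 CPM (14.2 to 128) and 234 CPM (104 to 374). Tnf, an inflammatory cytokine, was 1.31 CPM in libraries 34-39 (0.557 to 2.10) and 4.63 CPM in libraries 1-8 (2.35 to 7.92), and Gadd45b, a stress-induced gene, 34.9 CPM (12.8 to 38.3) and 96.1 CPM (59.3 to 157). Nr1d1, a repressor of the circadian clock, was 104 CPM (50.1 to 123) and 275 CPM (147 to 328). Of these 6 genes, Csrnp1 alone overlapped between the runs, and it alone was not called with TMM sizes. Library 35 was the lowest of the 14 in Nr4a3, Dusp5, Csrnp1, Tnf, Gadd45b and Nr1d1, and its acinar share was 38.7%. Without library 35, 46 genes were lower and 4 higher. Of the list of 15 immediate early and heat shock genes, 2 were called lower, Egr2 and Ier3, beside 0.327% of all genes, with a list median of -0.57 log2 units against -0.14 over all genes, and neither was called with TMM sizes. Of 13 circadian clock genes, Nr1d1 alone was called lower, with a list median of -0.62 log2 units.

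The remaining genes among the 10 farthest apart were of other kinds. 4833420G17Rik was 1.84 CPM in libraries 34-39 (1.00 to 3.39) and 14.5 CPM in libraries 1-8 (2.39 to 31.0). Cdh7 was 0 CPM in the median of libraries 34-39 (up to 0.254) and 2.65 CPM in libraries 1-8 (0.0406 to 6.97), and 12.5 CPM in the other 81. Mreg, a protein of melanosome transport, was 2.64 CPM (1.23 to 3.52) against 10.6 CPM (3.94 to 19.9), and Galnt9, a glycosyltransferase, 10.1 CPM (4.03 to 22.8) against 36.0 CPM (21.3 to 109). Gm9800, Rasgef1b, Mlf1 and Gm13139 completed the 10, and Gm9800 and Gm13139 share 79.4% and 88.0% of their words with other genes.

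**Figure D5:**
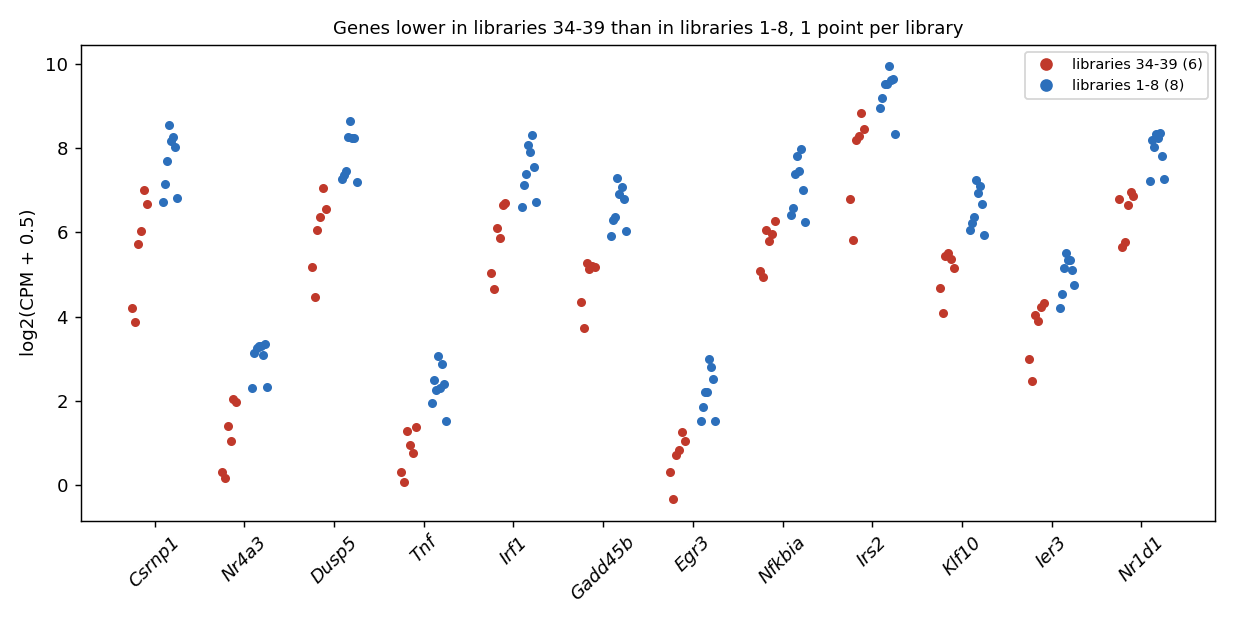
Levels of 12 genes lower in libraries 34-39 than in libraries 1-8, as log2(CPM + 0.5), 1 point per library, with the 6 libraries 34-39 left of the 8 libraries 1-8. Nr4a3, Dusp5, Tnf, Gadd45b and Nr1d1 have points that do not overlap between the runs.

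The values of the 358 called genes in other number runs were compared with the range of the 14 libraries. The median of libraries 66-75 fell within that range at 66 genes (18.4%), 15 of the higher and 51 of the lower ones. The same count was 28 genes (7.82%) for libraries 91-100, 25 (6.98%) for libraries 86-90, 17 (4.75%) for libraries 9-16 and 40-48, 12 (3.35%) for libraries 25-32 and 59-65, and 11 (3.07%) each for libraries 17-24 and 49-58 and for libraries 76-85. At 224 genes no other run's median was within the range of the 14, and at 105 genes 1 run's was. At 23 genes those of 2 runs were, at 5 those of 3 and at 1 those of 4. Called genes can have only limited overlap between the 14 and the other libraries. The call rule thus works against sharing with a large run or with several runs. In the order of the counts above, the runs held 9, 10, 4, 16, 14, 18 and 10 libraries. The count of 224 and the order of the runs are therefore partly set by the rule and by run size, and how far was not tested. The genes shared with libraries 66-75 alone included Pisd and its 2 copies, Myo5a, Eepd1, Egf, S100a4 and S100a6. Rpl10a-ps1 was counted with them, but its median in libraries 66-75, 16.0 CPM (6.45 to 26.4), lay between the separate levels of the 14 libraries.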

How the data were processed

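The authors deposited a table of estimated counts for 20638 genes in 95 libraries, without normalization, a table of variance-stabilised values on a log2 scale, and gene positions, which are given here as deposited. The submitters' processing notes name GRCm38 and DESeq2; aligner, counter, strand setting and annotation release are not given in the sources used here. Per the labels' protocols, poly(A) RNA was sequenced and the labels give no groups, so all libraries stayed unassigned. Depth was 16411809 to 34357253 counts per library.

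CPM was computed from column sums, log2 used a pseudocount of 0.5 CPM, and genes with 1 CPM in at least 10 libraries were kept (15281 autosomal). Fold changes are on that scale and understate differences of low genes. No test was run, and the steps were tested on simulated data. Gene kinds and 31-base words (either strand) came from GENCODE M21; 20532 genes matched by identifier, and 15231 of those compared had word shares. The estimated counts were rounded for DESeq2 1.42.0 size factors; TMM sizes came from edgeR 4.0.16 (R 4.3.3), and the rest from Python 3.11.15. The members, the number runs and the gene lists were chosen with earlier results of these data known.

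Named genes are Gm13341 and mt-Co2, the 15 highest and 15 lowest called protein-coding genes with under 20% of words shared, the 6 highest and 6 lowest other called genes, the 10 widest gaps, called list members or else the member farthest from 0, groups of 4 called genes, and the 10 largest differences between the runs. Some that meet the rule are given only as counts, and a few are not reported here. Genes outside it, among them the parents and copies in each family, Myo5a, Ncam1, the genes of split levels and the genes shared with libraries 66-75, were picked after their values were seen.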

Additional observations from a re-analysis of the deposited data

How the results depend on the processing

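The counts of 86 higher and 272 lower genes depended on scaling and thresholds, and the cause was not tested. Higher genes numbered 158 with TMM sizes, 163 with DESeq2 size factors and 134 with totals that leave out acinar and hormone genes. With a pseudocount of 2, 173 were lower, and the deposited variance-stabilised values gave 74 lower. Requiring ranges that do not overlap left 28 higher and 28 lower. A pair share of 0.90 gave 160 higher and 455 lower, and a difference of 2 log2 units gave 39 and 72. With Gm13341 included, libraries 1-8 against others 9-32 had 250 higher, libraries 34-39 against others 40-65 had 188 higher and 521 lower, and libraries 34-39 against others 40-100 had 411 lower. Among genes sharing under 20% of words, 49 were higher; fewer genes were compared there. In libraries 34-39 against 1-8, TMM sizes left 25 genes lower in place of 50. No called gene named by the rule changed sign under the alternatives run for it. Over all genes named by the rule and all alternatives, 877 values moved by less than the standard deviation over the 14 libraries and 122 by more, 55 of these with the variance-stabilised values and 30 with a pseudocount of 2. No paired analysis was possible because the labels put no library in a group. Values near 0 CPM rest on few counts, so levels there have little precision.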
